A study of Homo sapiens with 10 samples.

Results

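The transcripts followed here were 10 inflammatory genes of the epithelium: the chemokines CXCL1, CXCL2, CXCL3, CXCL5, CXCL8, CCL2 and CCL20, the cytokines IL1A and IL1B, and NFKBIA, which encodes the NF-kB inhibitor IκBα. They were chosen by gene symbol, with earlier results of these data known. Each symbol stood on 1 row of every count file, and they were 10 of 52402 symbols. They were measured by mRNA-sequencing in BEAS2B, an immortalised line of human bronchial epithelial cells, so that every group is a model of 1 cell line. The study introduced miRNAs of a serum panel for small cell lung cancer into this line and asked how total mRNA changed. Its 5 groups received a scrambled control (miRcontrol), the miR-3124-5p mimic (miR3124_mimic), the miR-200b-3p mimic (miR200b_mimic), an inhibitor of miR-92b (miR92b_inhibitor), or all 3 together (the 3-miRNA mixed group). Each group had 2 libraries, and RNA was taken 48 h after lipid transfection, which miRcontrol underwent too. The control and the single molecules were given at 50 nM, and the amount of each in the mixture is not given in the sources used here. A mimic is a synthetic duplex that acts as the mature miRNA, and an inhibitor is an antisense molecule that binds it.

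CXC chemokines such as CXCL8 attract neutrophils, CCL2 attracts monocytes and CCL20 attracts dendritic cells and lymphocytes. Interleukin-1 α and β bind the same receptor, which leads through the adaptor MYD88 and the IRAK kinases to the IKK complex. IKK marks IκBα for degradation, NF-kB enters the nucleus, and it raises the transcription of the chemokines, of both interleukins and of NFKBIA itself, whose product then returns NF-kB to the cytoplasm. Airway epithelium makes these messages when it meets microbes or irritants, and their 3′ untranslated regions (3′UTRs) are known for AU-rich elements that speed their decay.

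The mature sequences of the miRNAs are shown with the seed, bases 2 to 8 from the 5′ end, in capitals, because a seed pairs with a matching word in the 3′UTR of a target. They were taken from RefSeq on GRCh38.p14. Both arms of miR-92b are shown, since the labels name the inhibitor's miRNA without its arm, while the study's panel names the 5p arm.
miR-3124-5p: uUCGCGGGcgaaggcaaaguc
miR-200b-3p: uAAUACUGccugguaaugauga
miR-92b-5p: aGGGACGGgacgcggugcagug
miR-92b-3p: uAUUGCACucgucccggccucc
The 4 seeds differ from one another. The word complementary to the seed was sought in the longest coding 3′UTR of each gene (GENCODE v29, GRCh38, 19113 3′UTRs). The words for miR-3124-5p (CCCGCGA), miR-200b-3p (CAGTATT) and miR-92b-5p (CCGTCCC) occurred in 0 of the 10 genes, and in 0.623%, 16.0% and 3.77% of all 3′UTRs. The word for miR-92b-3p (GTGCAAT) occurred in 1 of the 10, CXCL5, and in 11.0% of all 3′UTRs. The site in CXCL5 is printed with its word in capitals and lies on the minus strand at chr4:73995909-73995935.
CXCL5 site: acataattttGTGCAATtaacaaagct
These are matches of letters and no measure of binding.

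The libraries held 13587666 to 18503890 counts. Levels are given as CPM, counts per 1000000 after edgeR's RLE normalization, with factors from 0.985 to 1.02, and the 2 values of a group are given in the order of replicate 1 and 2. The 3 counts taken as the detection floor were worth 0.162 to 0.221 CPM. Of 52402 symbols, 14884 passed edgeR's filter on low counts, and 9 of the 10 genes were among them. CCL20 did not pass. Differences are log2 fold changes with their standard error (SE) from edgeR's quasi-likelihood test over all 10 libraries, with Benjamini-Hochberg adjusted p-values over the 14884 genes. A gene was called where that adjusted p was under 0.05. The median log2 fold change of all genes lay between -0.0061 and 0.0039 in the 4 comparisons with miRcontrol. No label says whether the replicates were separate transfections, so the p-values measure the spread between these libraries, which may be technical. In a bulk sample, fewer cells making a transcript and less transcript per cell cannot be told apart.

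**Figure D1:**
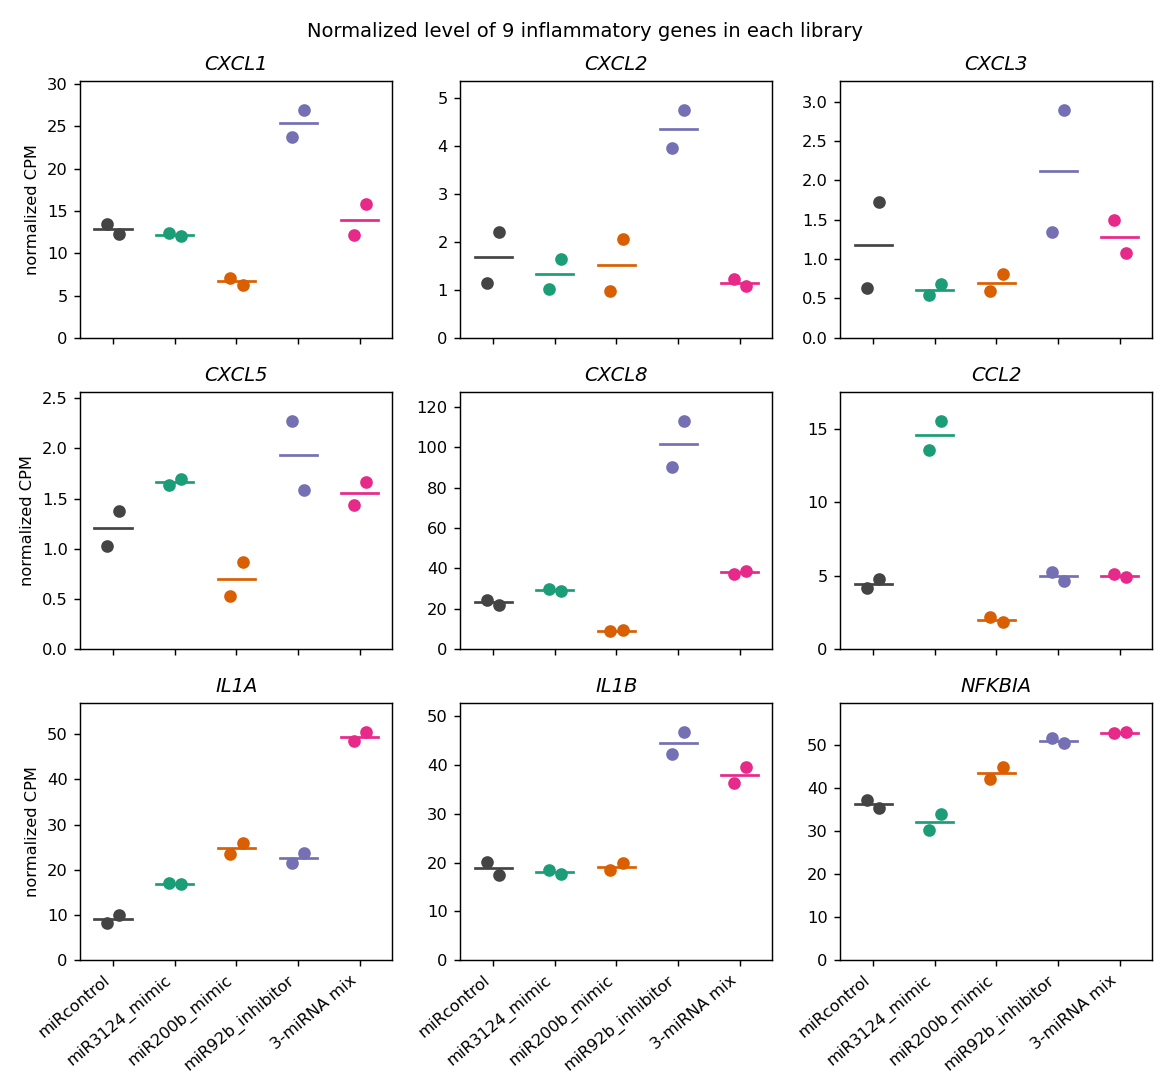
Normalized CPM (vertical axis, from 0, a scale of its own in each panel) of 9 genes in each of the 10 libraries (points), with the mean of the 2 libraries of a group as a bar. CXCL8 reached 90.3 and 113 CPM in miR92b_inhibitor, CCL2 13.6 and 15.6 CPM in miR3124_mimic, and IL1A 48.4 and 50.5 CPM in the 3-miRNA mixed group.

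In miRcontrol cells, NFKBIA had the highest level per length of the 10 genes, at 23.3 CPM per kb of transcript. CXCL8 followed with 13.5, CXCL1 with 11.7 and IL1B with 11.5 CPM per kb. CCL2 stood at 6.04 and IL1A at 4.29 CPM per kb. The remaining CXC chemokines were scarce, with 1.38 for CXCL2, 1.10 for CXCL3 and 0.473 CPM per kb for CXCL5. In the 3-miRNA mixed group IL1A, at 23.3 CPM per kb, reached the level of IL1B, also 23.3 CPM per kb, whereas in miRcontrol it had stood below it.

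CXCL8 (interleukin-8; chr4:73740506-73743716, plus strand) spanned the widest range of the 10 genes. Its levels were 24.4 and 21.7 CPM for miRcontrol, 29.6 and 28.7 for miR3124_mimic, 8.75 and 9.26 for miR200b_mimic, 90.3 and 113 for miR92b_inhibitor, and 37.2 and 38.8 for the 3-miRNA mixed group. No 2 groups overlapped, and each group differed from its neighbour in the order miR92b_inhibitor, mixed, miR3124_mimic, miRcontrol, miR200b_mimic. In miR92b_inhibitor CXCL8 rose 4.42-fold (log2 2.14, SE 0.078, edgeR adjusted p = 2.3e-26). In miR200b_mimic it was 2.55-fold lower (log2 -1.35, SE 0.12, edgeR adjusted p = 3.2e-13). Between these opposite groups the difference was 11.3-fold (log2 3.49, SE 0.095). The rise in miR3124_mimic was small (log2 0.34, SE 0.094, edgeR adjusted p = 0.0023), and without miRcontrol replicate 2 it was 0.25 and missed the threshold (adjusted p = 0.069). In the mixed group CXCL8 rose 1.65-fold (log2 0.72, SE 0.088, edgeR adjusted p = 2.7e-09).

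CXCL1 (chr4:73869393-73871242, plus strand), which signals to neutrophils through CXCR2, moved in the same directions at smaller size in 2 of the single groups. It stood at 13.5 and 12.2 CPM for miRcontrol, 12.4 and 12.0 for miR3124_mimic, 7.10 and 6.27 for miR200b_mimic, 23.7 and 27.0 for miR92b_inhibitor, and 12.2 and 15.8 for the mixed group. The miR92b_inhibitor libraries lay above and the miR200b_mimic libraries below all others, and the remaining groups overlapped. CXCL1 rose by log2 0.98 (SE 0.11, edgeR adjusted p = 4.1e-10) in miR92b_inhibitor and fell by 0.95 on the log2 scale (SE 0.14, edgeR adjusted p = 1.8e-07) in miR200b_mimic. The differences were -0.08 (95% interval -0.33 to 0.16) in miR3124_mimic and 0.12 (-0.12 to 0.35) in the mixed group, and neither was called.

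CXCL2 (chr4:74097035-74099293, minus strand) and CXCL3 (chr4:74036589-74038807, minus strand) are close relatives of CXCL1. CXCL2 had 1.14 and 2.21 CPM for miRcontrol, 1.02 and 1.64 for miR3124_mimic, 0.972 and 2.07 for miR200b_mimic, 3.97 and 4.76 for miR92b_inhibitor, and 1.22 and 1.08 for the mixed group. Only the miR92b_inhibitor libraries stood apart. There CXCL2 rose 2.61-fold (log2 1.39, SE 0.29, edgeR adjusted p = 0.00019), and the value ranged from 0.98 to 1.92 when 1 library was left out. CXCL3 had 0.630 and 1.73 CPM for miRcontrol, 0.546 and 0.679 for miR3124_mimic, 0.598 and 0.805 for miR200b_mimic, 1.34 and 2.90 for miR92b_inhibitor, and 1.49 and 1.08 for the mixed group. The 2 miRcontrol libraries, with 11 and 29 reads, were far apart, and the other groups overlapped them or each other. CXCL3 was called in none of the 4 comparisons with miRcontrol, with -0.92 (adjusted p = 0.12), -0.71 (0.25), 0.86 (0.078) and 0.13 (0.84) by edgeR in the order of the groups. These calls depended on the control: without miRcontrol replicate 1 the values in miR3124_mimic and miR200b_mimic were -1.48 (adjusted p = 0.017) and -1.27 (0.049), and without miRcontrol replicate 2 that in miR92b_inhibitor was 1.75 (0.010). Without the scarcer miR92b_inhibitor library, replicate 1, it was 1.30 (adjusted p = 0.016). Against miR3124_mimic and miR200b_mimic, CXCL3 was higher in miR92b_inhibitor by log2 1.78 (SE 0.44, edgeR adjusted p = 0.00055) and 1.57 (SE 0.43, 0.0021). CXCL1, CXCL2 and CXCL3 share no run of 100 bases, the length of a read, with another gene's transcript. Their longest exact shared runs were 97 bases between CXCL2 and CXCL3, 77 between CXCL1 and CXCL2 and 55 between CXCL1 and CXCL3, so how reads with mismatches were divided among them was not tested.

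CXCL5 (chr4:73995642-73998779, minus strand), another CXCR2 ligand of epithelial cells, had 1.03 and 1.37 CPM for miRcontrol, 1.64 and 1.70 for miR3124_mimic, 0.523 and 0.863 for miR200b_mimic, 2.28 and 1.59 for miR92b_inhibitor, and 1.44 and 1.67 for the mixed group. The miR200b_mimic libraries were the lowest and the miRcontrol libraries came next, while the remaining groups overlapped. It was called in none of the 4 comparisons with miRcontrol (log2 0.48, -0.75, 0.68 and 0.37, with edgeR adjusted p from 0.12 to 0.43). It had 7 to 39 reads per library, and the 95% interval in miR92b_inhibitor ran from -0.01 to 1.37. CXCL5 was 2.69-fold higher in miR92b_inhibitor than in miR200b_mimic (log2 1.43, SE 0.39, edgeR adjusted p = 0.0018).

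CCL2 (monocyte chemoattractant; chr17:34255218-34257203, plus strand) had a pattern of its own. Its levels were 4.12 and 4.77 CPM for miRcontrol, 13.6 and 15.6 for miR3124_mimic, 2.17 and 1.84 for miR200b_mimic, 5.25 and 4.65 for miR92b_inhibitor, and 5.09 and 4.90 for the mixed group. The miR3124_mimic libraries were the highest, the miR200b_mimic libraries were the lowest, and the miR92b_inhibitor range overlapped those of miRcontrol and the mixed group. CCL2 rose 3.29-fold in miR3124_mimic (log2 1.72, SE 0.15, edgeR adjusted p = 1.3e-13) and was 2.23-fold lower in miR200b_mimic (log2 -1.16, SE 0.22, edgeR adjusted p = 2.5e-05). In miR92b_inhibitor, where CXCL8 rose most, the difference in CCL2 was 0.15 (95% interval -0.20 to 0.51), and in the mixed group it was 0.17 (-0.19 to 0.52).

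CCL20 (chr2:227805739-227817564, plus strand), the ligand of CCR6, had 0 counts in 9 libraries and 1 count in replicate 1 of the mixed group, which is 0.0553 CPM. All libraries thus lay at the floor, and no difference was detectable at this depth.

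IL1A (chr2:112773915-112784590, minus strand) rose in all 4 groups given a mimic, the inhibitor or the mixture. Its levels were 8.24 and 9.97 CPM for miRcontrol, 17.1 and 16.7 for miR3124_mimic, 23.4 and 26.0 for miR200b_mimic, 21.5 and 23.8 for miR92b_inhibitor, and 48.4 and 50.5 for the mixed group. Both miRcontrol libraries were below, and both mixed libraries above, all others. The rise was 1.86-fold in miR3124_mimic (log2 0.90, SE 0.11, edgeR adjusted p = 3.5e-09), 2.73-fold in miR200b_mimic (log2 1.45, SE 0.11, 7.1e-16) and 2.49-fold in miR92b_inhibitor (log2 1.32, SE 0.11, 4.6e-14). In the mixed group it was 5.44-fold (log2 2.44, SE 0.094, edgeR adjusted p = 3.8e-26). The miR200b_mimic and miR92b_inhibitor groups overlapped and differed by -0.13 (95% interval -0.31 to 0.05), whereas miR3124_mimic was below both.

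IL1B (chr2:112829751-112836903, minus strand), its neighbour on chromosome 2, followed another course. Levels were 20.1 and 17.5 CPM for miRcontrol, 18.6 and 17.7 for miR3124_mimic, 18.4 and 20.0 for miR200b_mimic, 42.3 and 46.8 for miR92b_inhibitor, and 36.2 and 39.7 for the mixed group. The miRcontrol, miR3124_mimic and miR200b_mimic libraries overlapped, and the miR92b_inhibitor and mixed libraries were above them. IL1B rose 2.37-fold in miR92b_inhibitor (log2 1.25, SE 0.083, edgeR adjusted p = 1.1e-16) and 2.02-fold in the mixed group (log2 1.01, SE 0.085, 5.2e-14). The differences in miR3124_mimic and miR200b_mimic were -0.06 (95% interval -0.25 to 0.14) and 0.03 (-0.16 to 0.23).

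NFKBIA (chr14:35401511-35404749, minus strand), the inhibitor whose gene NF-kB itself induces, changed by at most 1.46-fold against miRcontrol. It stood at 37.1 and 35.3 CPM for miRcontrol, 30.3 and 33.9 for miR3124_mimic, 42.0 and 44.9 for miR200b_mimic, 51.6 and 50.5 for miR92b_inhibitor, and 52.8 and 53.1 for the mixed group. No 2 groups overlapped. The rise was 1.20-fold in miR200b_mimic (log2 0.27, SE 0.070, edgeR adjusted p = 0.0016), 1.41-fold in miR92b_inhibitor (log2 0.49, SE 0.066, 5.7e-08) and 1.46-fold in the mixed group (log2 0.55, SE 0.066, 1.8e-09). Without miR200b_mimic replicate 2 the value in that group was 0.21 and missed the threshold (adjusted p = 0.057). NFKBIA was lower by 0.17 (log2 -0.17, SE 0.072) in miR3124_mimic at an edgeR adjusted p of 0.046. That call was lost with library totals alone (0.096), with DESeq2 (0.14), without the filter (0.084) and when either miRcontrol library was left out (0.24 and 0.051). It was also lost with only the 2 groups compared (0.053), with at least 10 counts in every library (0.066), without miR3124_mimic replicate 1 (0.39) and without either miR92b_inhibitor library (0.052 and 0.050).

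**Figure D2:**
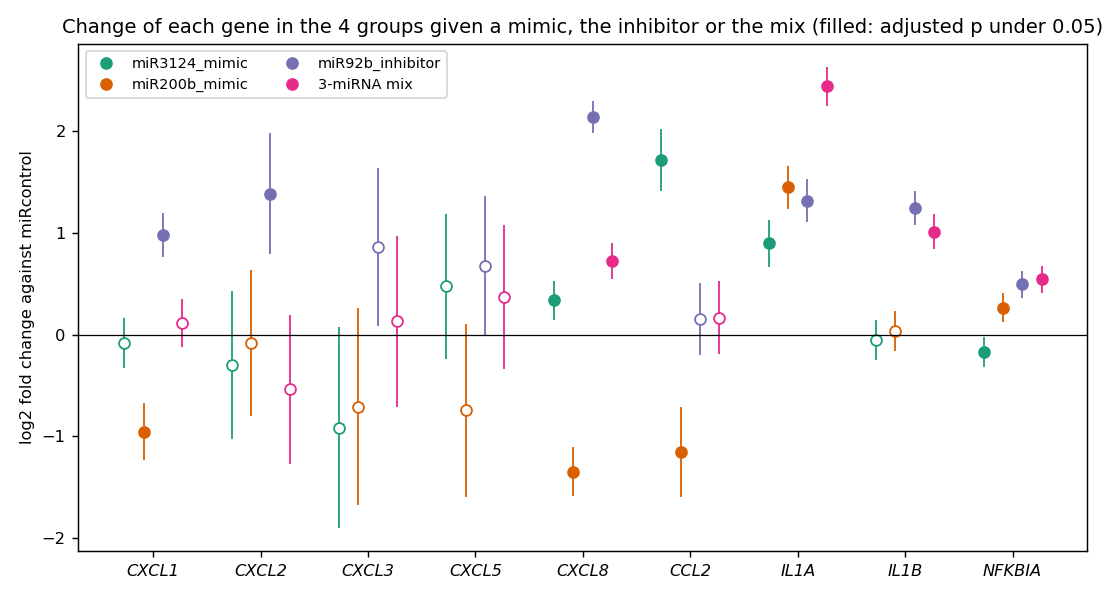
Log2 fold change against miRcontrol (vertical axis) of 9 genes in the 4 groups given a mimic, the inhibitor or the mixture, with 95% intervals from edgeR as bars and filled points where the adjusted p was under 0.05. IL1A lies above 0 in all 4 groups, while CXCL8 runs from -1.35 in miR200b_mimic to 2.14 in miR92b_inhibitor.

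Counted by group, miR92b_inhibitor had 6 of the 9 tested genes higher (CXCL1, CXCL2, CXCL8, IL1A, IL1B and NFKBIA) and 0 lower, where 17.5% of all tested genes were called higher and 18.2% lower. CXCL3, CXCL5 and CCL2 were not called there (unadjusted edgeR p of 0.031, 0.053 and 0.39). The mixed group had 4 higher (CXCL8, IL1A, IL1B and NFKBIA) and 0 lower, against 21.5% and 21.1% of all genes. The miR3124_mimic group had 3 higher (CXCL8, CCL2 and IL1A) and 1 lower (NFKBIA), against 25.7% and 25.3%. The rises there were not far from the share of all genes, and the falls were under it. The miR200b_mimic group had 2 higher (IL1A and NFKBIA) and 3 lower (CXCL1, CXCL8 and CCL2), against 21.4% and 19.1%. Its rises were near the share of all genes. With a fold of at least 2 required as well, the count was 4 higher in miR92b_inhibitor (CXCL2, CXCL8, IL1A and IL1B), where 0.988% of all genes passed upward and 0.927% downward. It was 2 higher in the mixed group (IL1A and IL1B; 3.14% and 1.53% of all genes), 1 higher in miR3124_mimic (CCL2; 5.37% and 2.75%), and 1 higher and 2 lower in miR200b_mimic (IL1A, and CXCL8 with CCL2; 2.72% and 2.16%). The 4 comparisons share the miRcontrol libraries.

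The mixed group was next compared with each single group, which asks whether a gene stood where one of the 3 miRNAs alone had put it. Against miR3124_mimic, 4 genes were higher (CXCL8, IL1A, IL1B and NFKBIA; 25.3% of all genes) and 1 was lower, CCL2 (23.8%). CCL2 was 2.93-fold lower in the mixed group than in miR3124_mimic (log2 -1.55, SE 0.15, edgeR adjusted p = 1.5e-12). Against miR200b_mimic, 7 of the 9 were higher (CXCL1, CXCL5, CXCL8, CCL2, IL1A, IL1B and NFKBIA; 18.2% of all genes) and 0 were lower (20.4%). CXCL8 was the farthest at 4.20-fold (log2 2.07, SE 0.11, edgeR adjusted p = 1.3e-20), and CXCL5 was the weakest by its edgeR adjusted p (log2 1.12, SE 0.40, 0.023), which was 0.081 by DESeq2, 0.18 without miR200b_mimic replicate 1 and 0.12 without mixed replicate 2. Against miR92b_inhibitor, 4 genes were lower (CXCL1, CXCL2, CXCL8 and IL1B; 19.9% of all genes) and 1 was higher, IL1A (19.7%). CXCL2 was 3.80-fold lower in the mixed group than in miR92b_inhibitor (log2 -1.93, SE 0.31, edgeR adjusted p = 1.6e-06) and CXCL8 was 2.68-fold lower (log2 -1.42, SE 0.071, 8.8e-22). IL1B differed little (log2 -0.23, SE 0.074, edgeR adjusted p = 0.010), and it was not called by DESeq2 (0.087), without miR92b_inhibitor replicate 2 (0.21) or without mixed replicate 1 (0.16). NFKBIA was alike in size in both groups (log2 0.05, 95% interval -0.07 to 0.18).

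The change in the mixed group was also set against the sum of the 3 single changes on the log2 scale, as 1 contrast in the edgeR fit. This sum is a reference point only, since the amount of each molecule in the mixture is not known here. IL1A was called. Its single changes add to 3.66, its change in the mixture was 2.44, and the departure was -1.22 (SE 0.21, edgeR adjusted p = 1.9e-05), so the mixed libraries were lower than the sum though higher than each single group. This was 1 of 9 genes, 0 were called above the sum, and of all genes 11.7% were called above and 10.1% below. For CXCL8 the sum was 1.13, the change 0.72 and the departure -0.41 (95% interval -0.81 to -0.01, edgeR adjusted p = 0.15), which was -0.56 (0.019) without miR92b_inhibitor replicate 1. For CXCL2 the sum was 1.01, the change -0.54 and the departure -1.54 (-2.94 to -0.15, edgeR adjusted p = 0.11). That of CXCL2 was -2.62 (0.030) without miRcontrol replicate 2 and -1.94 (0.036) without miR200b_mimic replicate 1. For NFKBIA, IL1B and CXCL1 the departures were -0.04 (95% interval -0.32 to 0.23), -0.21 (-0.58 to 0.16) and 0.18 (-0.32 to 0.67). Those of CCL2, CXCL3 and CXCL5 were -0.54 (-1.30 to 0.21), 0.89 (-0.92 to 2.70) and -0.04 (-1.64 to 1.56). None of these was called, and the wider intervals leave room for sizeable departures.

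**Figure D3:**
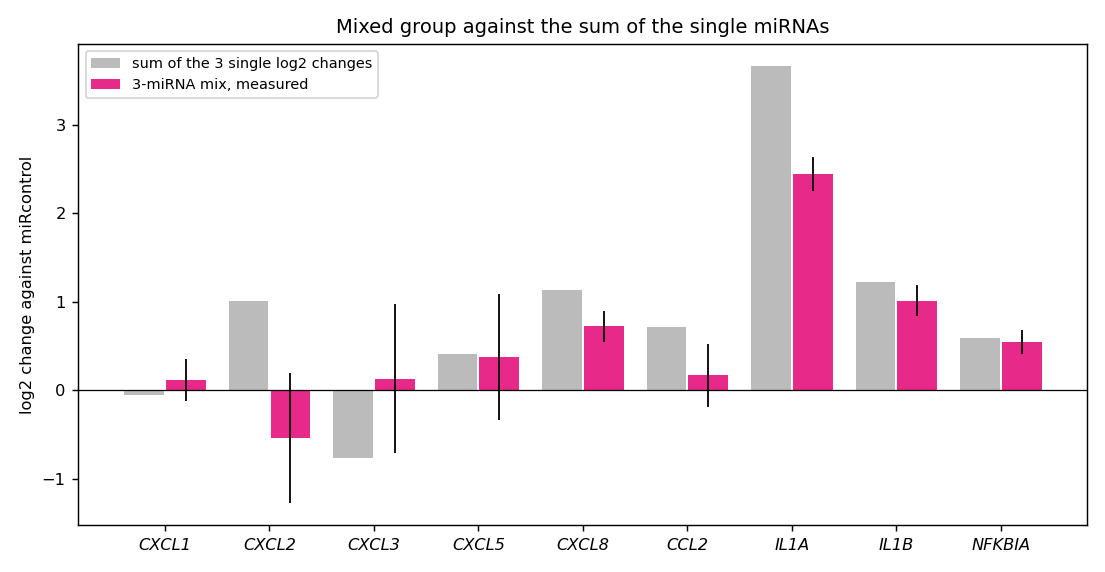
Log2 change against miRcontrol of 9 genes: the sum of the 3 single groups' changes (grey bars) and the change measured in the 3-miRNA mixed group (pink bars, with 95% intervals from edgeR). IL1A is the 1 gene called below its sum, 2.44 against 3.66.

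Over the 10 libraries the genes varied together to different degrees, which is described by Pearson's r of log2 CPM. These libraries are 5 pairs, so the points are not independent and no p is given. CXCL1 and CXCL8 were the closest (r = 0.975), and CXCL5 followed CXCL8 at 0.826. IL1B lay near NFKBIA (0.855) and CXCL8 (0.791). IL1A was close to NFKBIA (0.734) and far from CXCL1 (0.015) and CXCL8 (0.152). CCL2 was apart from both interleukins (-0.160 with IL1A, -0.073 with IL1B) and from NFKBIA (-0.491). With the other chemokines it had 0.689 (CXCL5), 0.429 (CXCL8), 0.384 (CXCL1), -0.072 (CXCL2) and -0.119 (CXCL3).

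**Figure D4:**
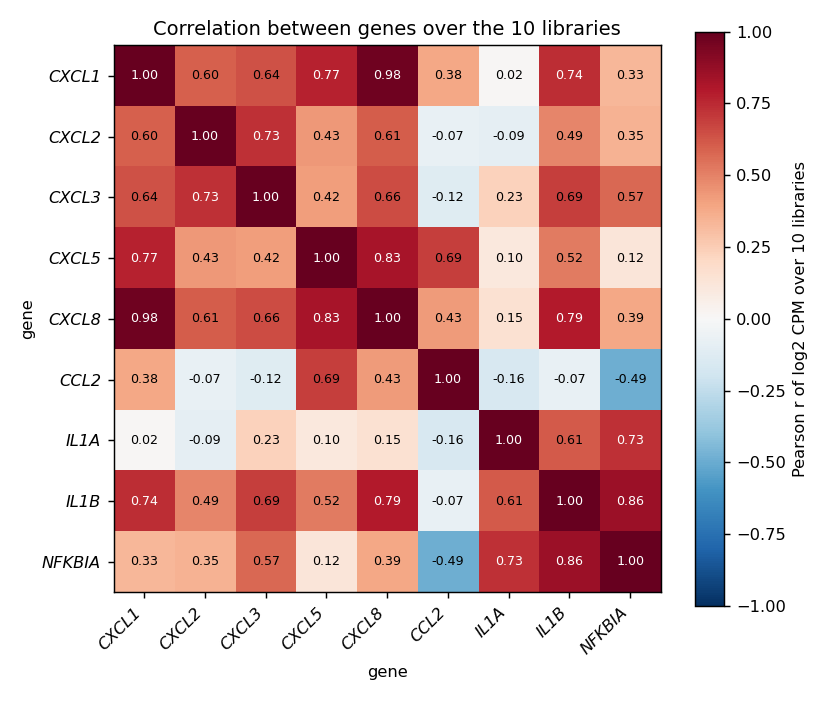
Pearson's r of log2 CPM over 10 libraries between each pair of 9 genes, given in the cells and by colour from -1 (blue) to 1 (red). CXCL1 and CXCL8 have the highest value (0.975) and CCL2 and NFKBIA the lowest (-0.491).

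Among 12891 genes with a mean of at least 1 CPM, those whose profile over the 10 libraries was most like that of each gene were listed in the same way. Closest to CXCL8 was MMP1, the interstitial collagenase (r = 0.993), then PDE4DIP (0.987) and DDX17 (0.987). For CXCL1 they were ATF1 (0.993), GADD45A (0.985) and MAT2B (0.979). CCL2 was nearest to TNRC6A (0.996), which encodes a partner of Argonaute in miRNA silencing, NDRG4 (0.994) and TFPI (0.994). The profile of IL1A was most like those of EPHA2 (0.992), DCP1A (0.987), a decapping cofactor, and SLC38A1 (0.976). IL1B was most like PPP1R15A (0.995), ZNF594 (0.992) and IFRD1 (0.981), and NFKBIA like AFTPH (0.979), ADSL (0.977) and DDX56 (0.977). For the scarce genes the best values were lower, from 0.899 to 0.954, led by ZNF883 for CXCL2 (0.918), LOC100996573 for CXCL3 (0.954) and CDKN2AIP for CXCL5 (0.942).

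The promoters are shown because a short word stood at a like distance from the start in several of these genes. RefSeq promoters on GRCh38.p14, from 250 bases before to 50 after each start, held 9 of the 10 genes, and CCL2 had no entry. The word GGAATTTCC was sought on either strand, and it was chosen after the promoter letters had been seen. It occurred in 6 of the 9 genes and in 0.461% of 35116 promoters. CXCL1, CXCL2 and CXCL3 are close relatives whose letters around the word are nearly the same, so the 6 are not independent. The windows are printed 5′ to 3′ on the strand of the gene, with the word in capitals.
CXCL1: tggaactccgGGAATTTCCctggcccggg
CXCL2: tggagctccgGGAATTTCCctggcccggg
CXCL3: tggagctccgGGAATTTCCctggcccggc
CXCL5: atgagttcagGGAATTTCCccagcatccc
CXCL8: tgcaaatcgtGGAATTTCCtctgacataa
NFKBIA: tgactggcttGGAAATTCCccgagcctga
They lie at chr4:73869305-73869333 (plus), chr4:74099254-74099282 (minus), chr4:74038749-74038777 (minus), chr4:73998749-73998777 (minus), chr4:73740468-73740496 (plus) and chr14:35404812-35404840 (minus). The word began 77 to 91 bases before RefSeq's start in all 6, and NFKBIA held it on the opposite strand. The gene spans printed above are from GENCODE v29. By those spans, the windows of CXCL2, CXCL3 and CXCL5 lie inside the gene, past its annotated start. The looser kB consensus decamer, which overlaps this word, was found in CXCL1, CXCL2, CXCL3, CXCL5, CCL20 and NFKBIA (6 of 9, and 5.91% of all promoters). The AP-1 word TGANTCA was found in 2 of 9, CXCL8 and IL1A, and in 7.71% of promoters. In the order printed, these 6 genes changed by log2 0.98, 1.39, 0.86, 0.68, 2.14 and 0.49 in miR92b_inhibitor. CXCL3 and CXCL5, both scarce, were not called there. In miR200b_mimic the values were -0.95, -0.08, -0.71, -0.75, -1.35 and 0.27, with CXCL1, CXCL8 and NFKBIA called. The part of the word in these changes was not tested. A match is a description of letters and not a measured site.

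The AU-rich pentamer ATTTA stood in the 3′UTR of 10 of 10 genes (67.4% of all 3′UTRs) and the longer TATTTAT in 9 of 10, without CCL2 (30.9%). Per kb of 3′UTR the 10 genes had a median of 6.66 pentamers, against 1.48 in the 19103 other genes, whose 3′UTRs were longer (median 1084 against 689.5 bases). CXCL2 had the most at 13.9 per kb, with 10 pentamers, and CCL2 the fewest at 2.11 per kb, with 1. A list of 13 genes of message decay and its control was used, and not all of their products bind AU-rich elements. Of these 13 genes, 3 rose and 7 fell in miR3124_mimic, 5 and 4 for miR200b_mimic, 3 and 1 for miR92b_inhibitor, and 5 and 5 for the mixed group. The 3 that rose in miR3124_mimic were DUSP1, RC3H2 and RC3H1. The share that rose was 23.1% in miR3124_mimic, where 25.7% of all genes rose, 38.5% in miR200b_mimic (21.4%), 23.1% in miR92b_inhibitor (17.5%) and 38.5% in the mixed group (21.5%). The share that fell was 53.8% (25.3% of all genes), 30.8% (19.1%), 7.69% (18.2%) and 38.5% (21.1%) in the same order, and the median log2 fold changes were -0.12, 0.07, -0.0017 and -0.0015. ZFP36L1, which promotes decay of AU-rich messages, rose in miR200b_mimic (log2 0.82), miR92b_inhibitor (0.40) and the mixed group (0.51), and fell by 0.12 in miR3124_mimic. Its relative ZFP36L2 was lower in miR3124_mimic (log2 -0.20), miR200b_mimic (-0.42) and the mixed group (-0.22), and was not called in miR92b_inhibitor. ZFP36 was higher in miR200b_mimic (0.76), lower in miR3124_mimic (-0.31) and not called in the other groups. HNRNPD, whose product AUF1 binds AU-rich elements, fell in all 4, by 0.41, 0.51, 0.10 and 0.36 in the order of the groups.

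The other genes of the pathway were described from lists, with the same fit. All lists in this report were chosen with earlier results of these data known. Among 14 tested NF-kB subunits and inhibitors other than NFKBIA, 3 rose and 7 fell in miR3124_mimic (median log2 -0.18), 6 and 1 for miR200b_mimic (0.10), 5 and 0 for miR92b_inhibitor (0.09), and 8 and 1 in the mixed group (0.23). Rises made up 21.4, 42.9, 35.7 and 57.1% of the list in that order, where all genes gave 25.7, 21.4, 17.5 and 21.5%. Falls made up 50% in miR3124_mimic (25.3% of all genes) and 7.14% in both miR200b_mimic (19.1%) and the mixed group (21.1%), with 0 in miR92b_inhibitor (18.2%). RELB, a subunit of the non-canonical pathway, had 13.9 and 12.1 CPM in miRcontrol, 6.35 and 6.39 in miR3124_mimic and 27.7 and 33.1 in miR200b_mimic. It fell by 1.03 on the log2 scale in miR3124_mimic and rose in miR200b_mimic (1.23), miR92b_inhibitor (1.01) and the mixed group (0.90). TNFAIP3 (A20), a feedback inhibitor like NFKBIA, rose by log2 0.52, 1.03 and 1.45 in miR200b_mimic, miR92b_inhibitor and the mixed group, and fell by 0.27 in miR3124_mimic. NFKBIE, which encodes IκBε, rose in all 4 (log2 0.36, 0.43, 0.64 and 0.89). TNIP2, an A20-binding inhibitor, fell by 1.29 in miR3124_mimic and by 0.39 in the mixed group.

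Of 31 tested genes that carry signals from the receptors to IKK, 11 rose and 11 fell in miR3124_mimic (median log2 0.07), 15 and 2 for miR200b_mimic (0.20), 7 and 3 for miR92b_inhibitor (0.06), and 13 and 6 in the mixed group (0.14). Against 25.7, 21.4, 17.5 and 21.5% of all genes, 35.5, 48.4, 22.6 and 41.9% of this list rose. Against 25.3, 19.1, 18.2 and 21.1% of all genes, 35.5, 6.45, 9.68 and 19.4% fell. The rises in miR92b_inhibitor and the falls in the mixed group were thus near the share of all genes. TRAF1 had 2.12 and 2.98 CPM in miRcontrol, 18.7 and 20.9 in miR92b_inhibitor and 17.3 and 19.7 in the mixed group, rises of log2 2.96 and 2.86. It rose by 1.57 in miR200b_mimic, and in miR3124_mimic its difference was 0.16. BIRC3, a ubiquitin ligase and NF-kB target, rose in all 4 (log2 0.23, 0.92, 1.72 and 2.09). IRAK2 also rose in all 4 (0.56, 1.09, 0.94 and 1.42). IKBKB, the catalytic IKKβ, fell by 0.62 in miR200b_mimic and by 0.60 in the mixed group. IRAK1, a kinase behind the interleukin-1 receptor, fell by 0.62 in miR3124_mimic and rose by 0.21 in miR92b_inhibitor.

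Of 23 tested inflammatory NF-kB targets other than the 10 genes, 10 rose and 3 fell in miR3124_mimic, 13 and 1 for miR200b_mimic, 20 and 1 for miR92b_inhibitor, and 21 and 0 for the mixed group. These rises were 43.5, 56.5, 87 and 91.3% of the list, where 25.7, 21.4, 17.5 and 21.5% of all genes rose. The falls were 13, 4.35, 4.35 and 0%, where 25.3, 19.1, 18.2 and 21.1% of all genes fell. Their median log2 fold changes were 0.31, 0.47, 0.65 and 1.25, while that of all genes was within 0.0061 of 0. With CSF3, MMP9 and SAA2, which lay at the floor in miRcontrol, set at their bounds, the medians were 0.23, 0.47, 0.65 and 1.25. TRAF1 and BIRC3 are also in the list above. IL11 stood at 53.5 and 50.6 CPM in miRcontrol and at 212 and 216 in the mixed group, and rose by log2 1.65, 0.25, 0.85 and 2.04 in the order of the groups. PLAU (urokinase) rose by 1.40, 0.49, 0.33 and 1.30. CSF2 (GM-CSF) rose in miR92b_inhibitor (2.89) and in the mixed group (2.02), from 0.744 and 0.119 CPM in miRcontrol. SAA1, an acute-phase protein, rose from 0.343 and 0.239 CPM to 3.32 and 3.55 in the mixed group (log2 3.52). IL6 rose in miR200b_mimic (1.37), miR92b_inhibitor (1.27) and the mixed group (1.25), and was 0.63 in miR3124_mimic (edgeR adjusted p = 0.068). The anti-apoptotic BCL2A1 rose by 1.39 in miR3124_mimic, 2.65 in miR92b_inhibitor and 2.74 in the mixed group. The falls were those of F3 (tissue factor; by 0.97) and LIF (by 0.53) in miR3124_mimic, F3 (by 0.30) in miR200b_mimic and TNFAIP8 (by 0.23) in miR92b_inhibitor. PTGS2, a scarce gene, was named after its values were seen. It had 0.801 and 0.597 CPM in miRcontrol and, near the floor, 0.137 and 0.226 in miR3124_mimic. It fell by 1.88 in miR3124_mimic (SE 0.65, edgeR adjusted p = 0.013) and rose by 1.14 in miR200b_mimic (edgeR adjusted p = 0.031).

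**Figure D5:**
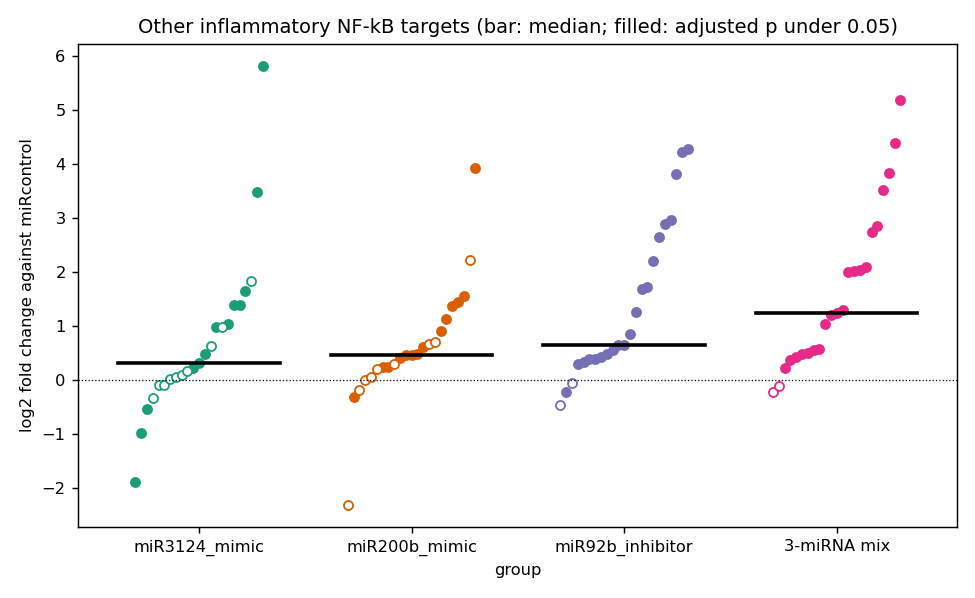
Log2 fold change against miRcontrol (vertical axis) of 23 inflammatory NF-kB targets other than the 10 genes, in the same 4 groups, with a point for each gene, ordered within a group and filled where the adjusted p was under 0.05. Bars mark the medians, 0.31, 0.47, 0.65 and 1.25, and the highest points include CSF3, MMP9 and SAA2, whose control level was at the floor.

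Around interleukin-1, 10 of 22 other family members, receptors and processing genes were tested. Of these, 4 rose and 1 fell with miR3124_mimic, 5 rose and 0 fell with miR200b_mimic, 1 rose and 1 fell with miR92b_inhibitor, and 2 rose and 1 fell in the mixed group. The rises in miR3124_mimic and miR200b_mimic were 40% and 50% of the list, against 25.7% and 21.4% of all genes. The single gene each way in miR92b_inhibitor, 10%, was under the 17.5% and 18.2% of all genes, and the rises in the mixed group, 20%, were near their 21.5%. The median log2 fold changes were 0.26, 0.56, -0.04 and 0.13. IL1RAP, the accessory chain of the receptor, had 41.1 and 40.1 CPM in miRcontrol and rose in miR3124_mimic (log2 1.24), miR200b_mimic (1.13) and the mixed group (1.13), while in miR92b_inhibitor it was -0.12 (edgeR adjusted p = 0.15). NLRP3, the sensor of the inflammasome that matures IL-1β, rose in all 4 (0.46, 1.21, 0.62 and 1.63). CASP1, the protease of that complex, rose in miR3124_mimic (0.88) and miR200b_mimic (0.86). IL18, a related cytokine, rose by 0.92 in miR200b_mimic and by 0.17 in miR3124_mimic and fell by 0.43 in miR92b_inhibitor. SIGIRR, a receptor that dampens IL-1 signals, fell by 0.56 in miR3124_mimic and by 0.62 in the mixed group. IL1RL1, the scarce receptor of IL-33 and named after its values were seen, rose by 1.64 in miR200b_mimic.

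Most other chemokines were not detected: 25 of 30 lay at the floor in every library. CXCL16 rose in miR3124_mimic (log2 1.15), miR200b_mimic (1.33) and the mixed group (1.63), from 2.63 and 2.15 CPM in miRcontrol. In miR92b_inhibitor it was 0.16 (edgeR adjusted p = 0.63). CXCL6, named after its values were seen, had 1.03 and 0.955 CPM in miRcontrol and 0 and 0.115 in miR200b_mimic, which is at the floor, and was called lower there. Of 22 chemokine receptors, 3 were tested and 14 were at the floor in every library. In the remaining groups 0 were called. In miR3124_mimic 2 were lower, which is 66.7% of only 3 tested, where 25.3% of all genes were lower. The scavenger receptor ACKR3 fell by 1.27 there, and CXCR6, named after its values were seen, had 0.137 and 0.113 CPM against 0.515 and 0.657 in miRcontrol. The counts of these receptors changed with the setting, and without miRcontrol replicate 2 none was called.

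Of 22 tested interferon-stimulated genes, 11 rose and 0 fell in miR3124_mimic, 5 and 1 for miR200b_mimic, 12 and 0 for miR92b_inhibitor, and 14 and 0 for the mixed group. The rises were 50, 22.7, 54.5 and 63.6% of the list, against 25.7, 21.4, 17.5 and 21.5% of all genes, so that in miR200b_mimic the share was near that of all genes. The falls were 0, 4.55, 0 and 0%, against 25.3, 19.1, 18.2 and 21.1%. Their median log2 fold changes were 0.56 (0.48 with genes at the floor set at their bounds), 0.14, 0.57 and 0.95. Their summed level was 316 to 319 CPM in miRcontrol, 395 to 419 in miR3124_mimic, 333 to 346 with miR200b_mimic, 425 to 475 with miR92b_inhibitor and 457 to 631 in the mixed group. The 2 mixed libraries were thus well apart in these genes. Of the 10 genes, the 4 called in the mixed group, CXCL8, IL1A, IL1B and NFKBIA, had like values in both. Others did not: CXCL1 had 12.2 and 15.8 CPM, and CXCL3 had 1.49 and 1.08 CPM. IFI6 rose by log2 1.79 in miR92b_inhibitor and 2.49 in the mixed group. OAS2, which makes the activator of RNase L, rose by 2.73 and 2.93 from 0.401 and 0.955 CPM, and its libraries were 2.16 and 6.79 CPM in miR92b_inhibitor. Without miR92b_inhibitor replicate 2, 6 of the list were called in that group. Their part in the changes of the 10 genes was not tested.

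The labelled cell type was checked against its markers. KRT7, KRT8 and KRT18, keratins of simple epithelium, were abundant, at 601 to 1561 CPM over the 10 libraries. KRT5 was at most 0.484 CPM, and CDH1, the epithelial cadherin, was at the floor in miRcontrol (0.172 and 0.119 CPM). In miR200b_mimic CDH1 reached 10.9 and 9.03 CPM, at least 56.9-fold above 3 counts per control library, and all 7 tested epithelial markers rose. In the mixed group 6 rose and KRT19 fell, in miR3124_mimic 3 rose and KRT19 fell, and in miR92b_inhibitor KRT7 and KRT19 fell. The shares that rose were 42.9% in miR3124_mimic (25.7% of all genes), 100% in miR200b_mimic (21.4%), 0% in miR92b_inhibitor (17.5%) and 85.7% in the mixed group (21.5%). The falls were 14.3% (25.3% of all genes), 0% (19.1%), 28.6% (18.2%) and 14.3% (21.1%) of the 7. Of 8 leukocyte markers, PTPRC (CD45), CD3E and CSF3R lay at the floor in every library. The summed level of the 8 was 27.6 to 28.8 CPM in miRcontrol, 36.2 to 37.0 in miR3124_mimic, 18.1 to 20.5 with miR200b_mimic, 40.4 to 42.4 with miR92b_inhibitor and 24.9 to 26.2 in the mixed group. Most of it was CD68, which had 23.4 and 23.9 CPM in miR3124_mimic. CD14 had 12.7 and 12.4 CPM in that group, where CCL2 was high too, against 0.801 and 1.43 in miRcontrol. Endothelial markers summed to at most 4.99 CPM, with the highest values in miR3124_mimic, where CDH5 had 4.03 and 2.49 CPM. Of the fibroblast markers DCN was at 0 in every library and COL1A1 carried the sum, with 13.0 and 11.0 CPM in miRcontrol, 36.9 in both miR200b_mimic libraries and 6.24 and 6.57 in miR92b_inhibitor. The part of these markers in the changes of the 10 genes was not tested.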

How the data were processed

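mRNA of BEAS2B cells was sequenced in 10 libraries, 2 for each of 5 groups taken from the labels. The authors selected poly(A) RNA, made directional libraries, sequenced paired ends of 100 bases, trimmed the reads and mapped them with TopHat to GRCh38. The counting tool and annotation are not given in the sources used here. What the authors deposited was 1 raw count per gene row, before any of the normalization that the study's methods name. Of 58173 rows per library, 5771 repeated a symbol, and their counts were summed.

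Counts were tested with edgeR 4.0.16 in R 4.3.3 (limma 3.58.1; filterByExpr, RLE, quasi-likelihood test, all 10 libraries, no covariates), and DESeq2 1.42.0 served as an alternative. The common dispersion was 0.000751. The edgeR fit was tested on counts simulated from the same kind of model, with the common dispersion for every gene. Such counts cannot show how the fit deals with a spread that differs between genes. Alternatives were TMM, library totals only, only the 2 groups compared, no filter, a minimum of 10 counts throughout, the replicate number as a block, leaving out each library, and a fold of at least 2 with an unadjusted or adjusted p under 0.05. The libraries of a group differed by more than counting error (chi-square over degrees of freedom 1.75 to 2.63).

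The genes and lists were chosen with earlier results of these data known. Named were the 10 genes, up to 3 called genes per list, direction and comparison by size with a mean of at least 1 CPM, and the 3 genes most like each of them. A group lay at the floor where none of its libraries exceeded 3 counts, and such limits cover counting error only.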

Additional observations from a re-analysis of the deposited data

How the results depend on the processing

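Over the other settings, 464 of 475 log2 fold changes of the 9 genes kept their side of the threshold, 7 lost a call, 4 gained one and 0 of the called values changed sign. With 1 library left out in turn, 700 of 720 did so, 11 lost a call, 9 gained one and 0 called values changed sign, while uncalled values such as those of CXCL2 in miR3124_mimic (-0.70 to 0.24) crossed 0. Leaving out 1 library changed the number of genes called from 4 to between 2 and 4 in miR3124_mimic (2 without miRcontrol replicate 2), from 5 to between 4 and 6 in miR200b_mimic, from 6 to between 6 and 7 in miR92b_inhibitor, and not from 4 in the mixed group. Against the sum of single changes it was 1 to 2, with 2 without miRcontrol replicate 2, miR200b_mimic replicate 1 or miR92b_inhibitor replicate 1. With a fold of at least 2 and either an unadjusted or an adjusted p under 0.05, the counts were 1 in miR3124_mimic, 3 in miR200b_mimic and 2 in the mixed group. Libraries with the same replicate number did not deviate together (correlations between groups -0.0274 to 0.0597), so the numbers were not taken as pairs. With the replicate block, 4, 5, 6 and 4 of the genes were called in the 4 comparisons with miRcontrol, as without it, and CXCL3 was called higher in the mixed group than in miR3124_mimic (log2 1.10, edgeR adjusted p = 0.043); it changed no other call of the 9 genes. The cause of these shifts was not tested. CXCL2, CXCL3 and CXCL5 had 7 to 87 reads per library, and their log2 fold changes against miRcontrol had SEs of 0.30 to 0.49, against at most 0.22 for the other genes tested; the part of depth in this was not tested.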
